A study of Homo sapiens with 44 samples.

Results

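The comparison described here is that of colon fibroblasts stimulated with IL-17A against the same cells without a cytokine. Its members were chosen by their labels, as the 4 libraries of the IL-17A group and the 4 of the unstimulated group, which makes 8 of the 44 bulk RNA-seq libraries of the series. All libraries were made from Ccd-18Co, a human fibroblast line established from colon, so that replicates are cultures of 1 line and not donors. Both groups were kept for 72 h in medium without serum, and the cells were then collected 24 h after IL-17A was added at 10 ng/ml or after no cytokine was added. The other 36 libraries hold 9 further cytokine groups of 4, of which IL-1β (0.1 ng/ml), TNF (10 ng/ml) and IL-6 (10 ng/ml) are used below. Nothing in the labels says that replicates were grown on separate days, and the p-values then measure only the spread between these cultures, which may be technical.

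IL-17A is a cytokine made mainly by T helper 17 cells and innate-like lymphocytes, and it acts on epithelial and stromal cells through a receptor of the subunits IL-17RA and IL-17RC. The adaptor Act1 (encoded by TRAF3IP2) recruits TRAF6 to this receptor, which activates NF-κB and C/EBP factors, and the atypical inhibitor IκBζ (NFKBIZ) is a co-factor for a set of the induced genes. Its best known products in stroma are the ELR CXC chemokines, which draw neutrophils through CXCR1 and CXCR2, and it is known to act weakly alone and more strongly beside TNF.

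Of 9513 genes tested, 43 (0.452%) were called in IL-17A-stimulated against unstimulated cells, 23 higher and 20 lower, which required a log2 fold change beyond 1.5 in either direction and an adjusted p under 0.05 (edgeR quasi-likelihood test, Benjamini-Hochberg adjustment). At an adjusted p under 0.05 alone, 57 genes (0.599%) rose and 88 (0.925%) fell, and these are the genes described as rising or falling below. The rises with the lowest adjusted p were the neutrophil chemokines CXCL6 (12.0-fold) and CXCL1 (19.2-fold) and then NFKBIZ (7.01-fold). The fitted fold was larger than that of NFKBIZ for SST (7.47-fold), TGFB3 and JUNB, all at lower levels. Among genes with more than 3 counts in each group, the falls were led by the keratin KRT18 (8.95-fold) and the synaptic adhesion gene NRXN3 (8.06-fold). KRT18 had 7 counts over the IL-17A libraries, so its fold rests on few counts. The falls also included 8 genes of the contractile apparatus and 3 of amino acid synthesis and stress. The median log2 fold change over all genes tested was -0.02. Of the 58 named genes that passed, 19 also passed under every alternative that gave a value, each library left out in turn included. Such results are marked below as stable, which says nothing of the size of the change. In 22 of the 23 genes called higher and 18 of the 20 called lower, no IL-17A library overlapped an unstimulated one. Over all genes tested, the IL-17A libraries were all above the unstimulated ones in 3.45% and all below in 3.62%. The called genes were chosen on these same libraries, which favours such separation.

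**Figure D1:**
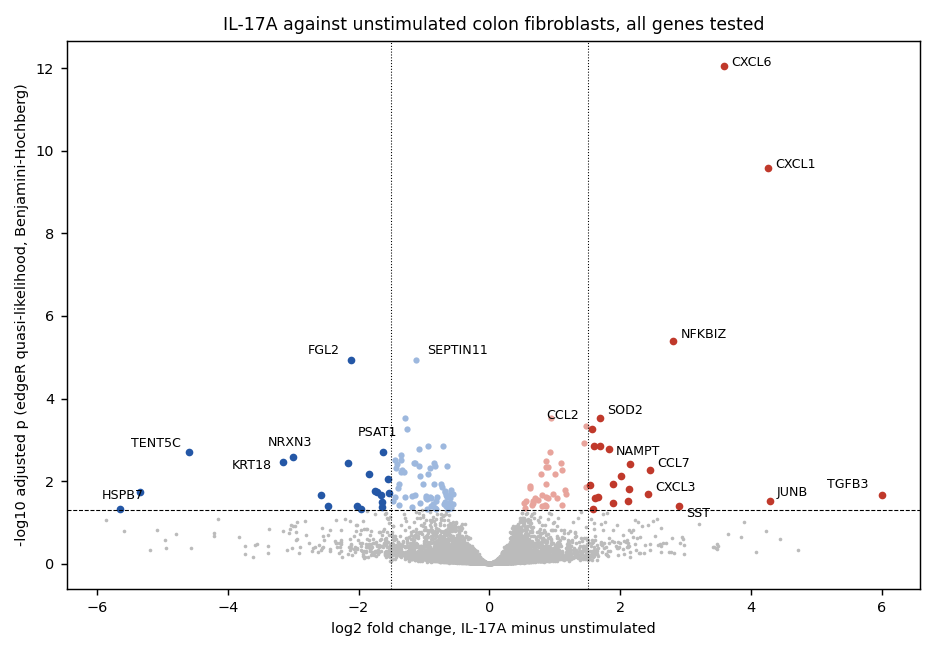
Each point is 1 of the 9513 genes tested, with the log2 fold change (IL-17A minus unstimulated) on the horizontal axis and -log10 of the adjusted p on the vertical axis; the dashed line marks an adjusted p of 0.05 and the dotted lines a log2 fold change of 1.5 in either direction. CXCL6 and CXCL1 stand far above all other genes, and the 23 genes called higher (dark red) are about as many as the 20 called lower (dark blue).

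The unstimulated libraries were not alike. Replicate 4 held more chemokine transcripts than the other 3: CXCL8 was at 554 CPM (counts scaled to a common normalized library size) against 19.7 to 85.1, and CXCL3 at 107 against 2.92 to 19.7. Replicate 1 held the most transcripts of contractile genes, with TAGLN at 612 CPM against 222 to 327 in the others and THY1 at 181 against 63.5 to 82.4. The hormone gene STC1 split the group, at 337 and 557 CPM in replicates 1 and 2 and at 4260 and 3360 CPM in replicates 3 and 4. Totals were 1365019 to 1725354 counts in the unstimulated and 1208396 to 2213424 in the IL-17A libraries, at which 3 counts in a library correspond to 1.39 to 2.40 CPM. The identity of the cells was checked by marker lists: all 12 fibroblast markers were tested, with a summed level of 29500 to 41600 CPM in unstimulated and 35400 to 37800 CPM in IL-17A libraries, and THY1 was the 1 marker that fell. Summed markers of epithelial cells (5.46 to 18.2 CPM, 5 of 8 at 0 in all 8 libraries), endothelial cells (0 to 2.92 CPM, 3 of 6 at 0), leukocytes (0 to 9.62 CPM, 6 of 11 at 0) and glia and neurons (0 to 4.81 CPM, 5 of 7 at 0) were low and overlapped between the groups.

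Of the 6 ELR CXC chemokine genes, which lie together on chromosome 4, 3 rose and none of the other 3 passed the test. CXCL1 (GRCh38 chr4:73869393-73871308, plus strand) was at 44.1, 29.2, 28.1 and 166 CPM in the unstimulated libraries and at 1210, 1200, 1330 and 1370 CPM in the IL-17A libraries. All IL-17A libraries were thus far above the highest unstimulated one, and the call was stable, at 4.26 ± 0.39 on the log2 scale (SE, adjusted p = 2.63e-10) and 5.23 without unstimulated replicate 4. CXCL6 (chr4:73836640-73849064, plus strand) was at 120, 105, 165 and 225 CPM without and at 2030, 1850, 1670 and 1870 CPM with IL-17A. It had the lowest p of all genes and was stable (log2 fold change 3.59 ± 0.27, adjusted p = 8.62e-13).

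CXCL3 (chr4:74036589-74038807, minus strand) was at 3.43, 2.92, 19.7 and 107 CPM without and at 199, 133, 193 and 176 CPM with IL-17A. Its log2 fold change was 2.43 ± 0.59 (adjusted p = 0.0209), and this value was 4.39 (adjusted p = 3.60e-05) without unstimulated replicate 4, whereas the adjusted p was 0.103 without unstimulated replicate 1 and 0.126 without replicate 2. When only the 2 groups were fitted, the adjusted p of CXCL3 was 0.0954. The 3 genes of the family that rose were 2 without unstimulated replicate 1 or 2 and 4 without replicate 4. CXCL2 was at 0.49, 0, 0 and 25.3 CPM without and at 19.9, 21.1, 52.9 and 29.3 CPM with IL-17A. Here replicate 4 alone overlapped the stimulated libraries, and the log2 fold change of 2.27 ± 0.70 did not pass (adjusted p = 0.0961). CXCL2 passed when that library was left out (6.71, adjusted p = 2.07e-04), with IL-6 libraries as the reference (3.87, adjusted p = 0.00853) and with a term for the replicate number. It also passed with no filter on low counts, where the fold change hardly differed and the SE was smaller (2.28 ± 0.30).

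CXCL8, encoding interleukin 8, was at 23.0, 19.7, 85.1 and 554 CPM without and at 431, 225, 240 and 330 CPM with IL-17A. The highest value of the 8 was thus an unstimulated one, and the log2 fold change of 0.85 ± 0.75 did not pass (adjusted p = 0.733). Without that library it was 2.87 (adjusted p = 0.0604). With no filter on low counts CXCL8 passed (0.87 ± 0.17, adjusted p = 9.72e-05), with a smaller SE on the same overlapping libraries and hardly any difference in the fold change. CXCL5 was low in both groups, at 1.47 to 38.3 CPM without and 13.0 to 28.7 CPM with IL-17A (log2 fold change 0.51 ± 0.55, adjusted p = 0.798, and 1.62 with an adjusted p of 0.219 without unstimulated replicate 4). The median log2 fold change of the 6 genes was 2.35. Near-identical stretches of CXCL1, CXCL2 and CXCL3 may share reads, and how the quantification divided them is not known.

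**Figure D2:**
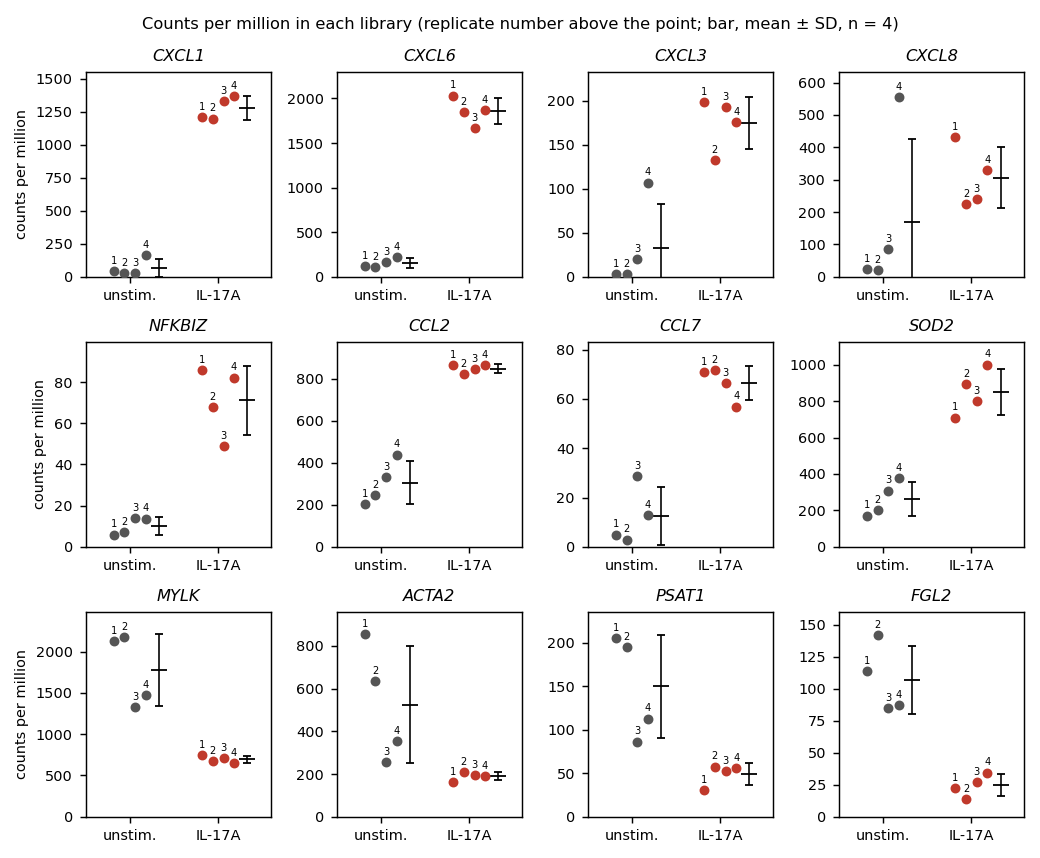
CPM in each library for 12 genes, with the replicate number above each point, unstimulated in grey and IL-17A in red, and the mean ± SD (n = 4) as a bar beside each group, drawn down to 0 at most. CXCL1, CXCL6, NFKBIZ, CCL2 and SOD2 show no overlap between the groups, and unstimulated replicate 4 lies at 554 in CXCL8, above all 4 IL-17A libraries. For MYLK, ACTA2 and PSAT1, unstimulated replicates 1 and 2 are the highest, and the IL-17A libraries are below all of the unstimulated ones.

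The sequences just upstream of these 6 genes are shown because 5 of them hold the same NF-κB motif at nearly the same distance from the gene start, whether or not the gene rose. Each stretch runs from 110 to 61 bases before the start that RefSeq lists (GRCh38.p14), is written 5′ to 3′ in the direction of the gene, and has matches to the NF-κB consensus in capitals.
CXCL1 (chr4:73869283-73869332, plus strand): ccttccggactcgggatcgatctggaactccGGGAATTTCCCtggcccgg
CXCL2 (chr4:74099256-74099305, minus strand): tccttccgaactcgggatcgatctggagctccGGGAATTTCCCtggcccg
CXCL3 (chr4:74038750-74038799, minus strand): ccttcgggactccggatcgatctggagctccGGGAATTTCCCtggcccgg
CXCL5 (chr4:73998738-73998787, minus strand): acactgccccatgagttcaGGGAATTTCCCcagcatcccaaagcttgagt
CXCL6 (chr4:73836568-73836617, plus strand): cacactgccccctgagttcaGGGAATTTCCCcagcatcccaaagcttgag
CXCL8 (chr4:73740459-73740508, plus strand): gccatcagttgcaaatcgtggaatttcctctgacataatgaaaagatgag

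In each of the 5, the capitals are the same run of 11 bases, in which 2 overlapping matches were counted. CXCL1, CXCL2 and CXCL3 resemble each other around it, as do CXCL5 and CXCL6, and each of these sets held both genes that rose (CXCL1, CXCL3, CXCL6) and genes that did not pass (CXCL2, CXCL5), a difference that was not tested. The CXCL8 stretch holds no match to these letters, and nothing about the factor is drawn from that. NFKBIZ, which also rose, holds a match further from its start, and the stretch from 240 to 201 bases before it is given for comparison.
NFKBIZ (chr3:101827750-101827789, plus strand): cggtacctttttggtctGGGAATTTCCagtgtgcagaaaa

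The NF-κB consensus was searched on both strands in the 250 bases before each RefSeq gene start. It was found for 5 of the 6 ELR CXC genes (83.3%) and for 15.0% of the tested genes that have a RefSeq promoter. Among all genes that rose it was found for 10 of the 50 with a promoter (20.0%), and among those that fell for 19.7% of 76. The C/EBP motif TTGCNNAA was found for 4 of those 50 genes that rose, 11.8% of those that fell and 9.13% of tested genes.

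Outside the ELR group, 2 of the 12 tested chemokine genes rose, both of them attractants of monocytes that lie side by side on chromosome 17. CCL2 (chr17:34255274-34257208, plus strand) was at 204, 248, 331 and 439 CPM without and at 867, 821, 845 and 864 CPM with IL-17A, a rise of 2.78-fold (log2 fold change 1.48 ± 0.25, adjusted p = 4.63e-04). CCL7 (chr17:34270221-34272242, plus strand) was at 4.90, 2.92, 28.8 and 13.0 CPM without and at 71.0, 71.8, 66.5 and 56.9 CPM with IL-17A (2.45 ± 0.52, adjusted p = 0.00552). In both, the IL-17A libraries were tightly grouped, the unstimulated ones were spread, and the rise was stable. CCL7 was at 3.28 on the log2 scale without unstimulated replicate 3. The other 10 did not pass, among them CCL20, an attractant of CCR6-bearing T helper 17 cells, which was at 0 in 3 unstimulated libraries and at 2.73 CPM in replicate 4, against 0 to 4.02 CPM with IL-17A. CCL11 (eotaxin) was at 64.0 to 91.6 CPM without and 56.2 to 72.4 CPM with IL-17A. The median over the 12 genes was 0.66, and 2 of the 12 had an unadjusted p under 0.05 (edgeR), beside 12.6% of all genes tested.

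Of the 14 tested genes of the IL-17 receptor and its signalling 0 passed the test (edgeR), with a median log2 fold change of 0.04. At an unadjusted p under 0.05 there were 4, where 12.6% of all genes tested (1195 of 9513) had such a p, and DESeq2 called 1, which fell. Receptor transcripts were near the limit of measurement and were not among the genes tested: IL17RA was at 0 to 4.90 CPM without and 1.86 to 6.32 CPM with IL-17A, and IL17RC was at 1.47 CPM in 1 unstimulated library and at 0 in the other 7. A value of 0 here allows up to 3 counts, or 1.39 to 2.40 CPM, and does not show that the receptor is absent. TRAF3IP2, encoding Act1, was at 0 to 6.37 CPM without and 4.17 to 17.2 CPM with IL-17A (log2 fold change 1.71 ± 0.75, adjusted p = 0.320). Among NF-κB, C/EBP and feedback genes, 2 of 11 tested rose.

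NFKBIZ (chr3:101827991-101861022, plus strand) was at 5.88, 7.29, 14.1 and 13.7 CPM without and at 85.8, 67.9, 48.9 and 82.1 CPM with IL-17A (log2 fold change 2.81 ± 0.37, adjusted p = 4.15e-06), and this rise was stable. NFKBIA, encoding the classical inhibitor IκBα, was at 21.5, 29.9, 71.1 and 56.0 CPM without and at 86.7, 93.6, 92.9 and 90.2 CPM with IL-17A (1.04 ± 0.26, adjusted p = 0.0256). NFKBIA did not pass without unstimulated replicate 1 or 2 or without IL-17A replicate 2, 3 or 4 (adjusted p of 0.0536 to 0.172). Nor did it pass when only the 2 groups were fitted (0.120). ZC3H12A, encoding the RNase Regnase-1 that degrades inflammatory transcripts, was at 0 in all 4 unstimulated libraries and at 0.78 to 5.61 CPM in the IL-17A libraries, and was too low to be tested. CEBPB (0.76 ± 0.51, adjusted p = 0.594) and CEBPD (0.63 ± 0.46, adjusted p = 0.645) did not pass, although every IL-17A library was above every unstimulated one for CEBPD. Such separation upward was seen in 3.45% of all genes tested and separation downward in 3.62%.

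Of 26 tested cytokine and growth factor genes, 0 passed the test (edgeR), and their median log2 fold change was 0.59. IL6 was at 4.90, 5.10, 1.41 and 26.0 CPM without and at 29.2, 17.2, 40.9 and 24.7 CPM with IL-17A (1.59 ± 0.54, adjusted p = 0.147). As for CXCL2, only unstimulated replicate 4 overlapped the stimulated libraries, and without it IL6 passed (2.82, adjusted p = 0.00805). CSF3, the granulocyte growth factor, had 2 counts over the unstimulated group, both in replicate 4, and 17 with IL-17A, a ratio of 8.33 with a 95% counting interval of 1.98 to 74.3 (adjusted p = 0.238). IL33 (0.98, adjusted p = 0.102), HGF (0.58, adjusted p = 0.350) and AREG (1.58, adjusted p = 0.302) were each higher in all 4 IL-17A libraries than in any unstimulated one and did not pass. At an unadjusted p under 0.05 there were 10 of the 26, beside the 12.6% of all genes tested. DESeq2 called 1, while 4 passed with a term for the replicate number and 5 with no filter on low counts.

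Of 15 tested acute-phase, complement and antimicrobial genes 1 rose, and 11 of the 31 on the list were at 0 in all 8 libraries. The gene that rose was SOD2, the mitochondrial superoxide dismutase, at 171, 202, 308 and 375 CPM without and at 709, 891, 800 and 1000 CPM with IL-17A (1.69 ± 0.27, adjusted p = 2.89e-04), a stable rise. LCN2 and SAA1, known IL-17A targets in epithelial cells, had 0 counts in all 8 libraries. The complement gene C3 was at 0 to 2.73 CPM without and 0 to 7.02 CPM with IL-17A. Cytokine receptors had 1 rise in 18 tested genes, that of IL13RA2, a decoy receptor for IL-13, from 62.7 to 142 CPM to 261 to 330 CPM (1.59 ± 0.44, adjusted p = 0.0478). IL13RA2 did not pass without unstimulated replicate 1 or 2 or without any single IL-17A library (adjusted p of 0.0676 to 0.220). Among prostaglandin and hyaluronan genes PTGS2, encoding cyclooxygenase 2, was at 20.6, 43.7, 126 and 193 CPM without and at 320, 310, 252 and 388 CPM with IL-17A, and did not pass (1.74, adjusted p = 0.154).

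Several other rises followed from the rule on the largest changes. NAMPT, the rate-limiting enzyme of NAD salvage, was at 125, 192, 211 and 313 CPM without and at 860, 749, 639 and 732 CPM with IL-17A (1.83 ± 0.34, adjusted p = 0.00168). AKR1C1, an aldo-keto reductase that inactivates progesterone, was at 28.1 to 57.4 CPM without and 121 to 140 CPM with IL-17A (1.69 ± 0.31, adjusted p = 0.00145). The rises of NAMPT and AKR1C1 were stable, and AKR1C1 may share reads with the near-identical AKR1C2. IER3, an immediate early gene, was at 4.37 to 15.7 CPM without and 27.0 to 41.3 CPM with IL-17A (2.01 ± 0.44, adjusted p = 0.00745, and 0.0612 without unstimulated replicate 2).

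FAM110B was at 8.81 to 38.0 CPM without and 89.7 to 107 CPM with IL-17A (2.15 ± 0.44, adjusted p = 0.00395, and 0.0724 with IL-6 libraries as the reference). Of lower level were SST, encoding somatostatin (2.11 to 4.90 against 10.7 to 36.8 CPM), NLRC5, the transactivator of MHC class I genes (1.96 to 3.52 against 5.10 to 16.8 CPM), TMOD1, which caps actin filaments (2.19 to 13.7 against 17.6 to 38.2 CPM), and RGCC (1.46 to 18.3 against 19.0 to 47.3 CPM). RIPOR3-AS1 rose from 0.729 to 7.74 CPM to 10.9 to 32.1 CPM, but overlaps RIPOR3 on the other strand, and whether strand was used in counting is not stated. SST, NLRC5 and RGCC did not pass without unstimulated replicate 1, 2 or 4 or IL-17A replicate 3 or 4, SST and RGCC also not without IL-17A replicate 2, and SST not without unstimulated replicate 3 (adjusted p of 0.0517 to 0.186). Without unstimulated replicate 3 the value of RGCC was 2.79. RGCC, TMOD1 and RIPOR3-AS1 did not pass when only the 2 groups were fitted (adjusted p of 0.0882 to 0.147). TMOD1 was at 2.53 without unstimulated replicate 1 (1.89 with all) and did not pass without unstimulated replicate 2 or IL-17A replicate 2 (adjusted p of 0.0927 and 0.0662), nor RIPOR3-AS1 without unstimulated replicate 1 or 2 or IL-17A replicate 3 (0.0652 to 0.103).

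Among 24 tested TGF-β and BMP genes 3 rose and none fell, with a median log2 fold change of 0.06, where 0.599% of all genes tested rose. At an unadjusted p under 0.05 (edgeR) there were 8 of the 24, beside 12.6% of all genes tested. TGFB3 was at 0 in all 4 unstimulated libraries and at 12.5, 0.78, 1.6 and 5.74 CPM with IL-17A, at least 2.64-fold higher when the unstimulated level is set to 3 counts per library. The follistatin gene FST, whose product binds activins, was at 35.3 to 59.8 CPM without and 85.7 to 116 CPM with IL-17A (0.97 ± 0.24, adjusted p = 0.0209). ID2, an inhibitor of helix-loop-helix factors, was at 27.0 to 56.0 CPM without and 79.6 to 99.4 CPM with IL-17A (1.11 ± 0.23, adjusted p = 0.00536). Without unstimulated replicate 2 none of the 3 passed (adjusted p of 0.0561 to 0.0823), without replicate 1 only ID2 did, TGFB3 did not without unstimulated replicate 4 or IL-17A replicate 1, nor FST without IL-17A replicate 2. JUNB, on the early response list, had 2 counts over the unstimulated and 42 over the IL-17A libraries, a ratio of 20.6 with a 95% counting interval of 5.35 to 176, and was at 0 in IL-17A replicate 1. It did not pass when any single unstimulated library or IL-17A replicate 2 or 3 was left out (adjusted p of 0.0532 to 0.169).

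Of the 29 tested genes of the contractile program, which serves force generation in myofibroblasts and smooth muscle, 8 fell and none rose. The log2 fold change was below 0 for 28 of the 29, with a median of -0.82, and for 4881 of all 9513 genes tested, of which 0.925% fell. At an unadjusted p under 0.05 (edgeR) there were 14 of the 29, beside 12.6% of all genes tested. The summed level of the list was 14200, 13000, 10400 and 10300 CPM in unstimulated replicates 1 to 4, so its members varied together and are not independent. MYLK, encoding myosin light chain kinase, was at 2130, 2180, 1330 and 1470 CPM without and at 744, 673, 709 and 650 CPM with IL-17A, a fall of 2.57-fold (log2 fold change -1.36 ± 0.26, adjusted p = 0.00236). TPM4, a tropomyosin, was at 1500, 1310, 1100 and 1180 CPM without and at 716, 823, 746 and 808 CPM with IL-17A (-0.72 ± 0.13, adjusted p = 0.00145). The falls of MYLK and TPM4 were stable.

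ACTA2, encoding α-smooth muscle actin, was at 853, 636, 254 and 354 CPM without and at 162, 210, 196 and 190 CPM with IL-17A (-1.47 ± 0.38, adjusted p = 0.0312). TAGLN, encoding transgelin, was at 612, 327, 222 and 232 CPM without and at 139, 140, 200 and 94.8 CPM with IL-17A (-1.29 ± 0.32, adjusted p = 0.0244). In both genes the groups did not overlap, and unstimulated replicate 1 was the highest library. Without it, 3 of the 29 genes fell, and ACTA2 (-1.13, adjusted p = 0.210) and TAGLN (-0.86, adjusted p = 0.257) did not pass. The count was 3 without unstimulated replicate 2, it was 4, 3, 5 and 2 without IL-17A replicates 1, 2, 3 and 4, and it was 8 without unstimulated replicate 3 or 4. ACTA2 did not pass when unstimulated replicate 1 or 2 or any 1 IL-17A library was left out (adjusted p of 0.0793 to 0.210). The same held for TAGLN except for IL-17A replicate 3 (0.0608 to 0.257). With IL-6 libraries in place of the unstimulated ones 8 fell, ACTA2 among them (-1.63, adjusted p = 0.0153), but ACTA2 was at 907, 770, 284 and 379 CPM in IL-6 replicates 1 to 4, the same division of the numbers as in the unstimulated group.

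The other contractile genes that fell were CSRP1 (-1.15 ± 0.28), ACTN1 (-0.89 ± 0.22), TPM1 (-0.61 ± 0.16) and CALD1 (-0.59 ± 0.14), and the groups did not overlap for any of the 4. Each of these failed to pass without some library: CSRP1 without unstimulated replicate 1 or IL-17A replicate 2, 3 or 4, ACTN1 without unstimulated replicate 1 or 2 or IL-17A replicate 1, 2 or 4, TPM1 without any library but unstimulated replicate 4, and CALD1 without unstimulated replicate 2 or IL-17A replicate 1 or 4 (adjusted p of 0.0510 to 0.257). CSRP1, TPM1 and CALD1 also did not pass when only the 2 groups were fitted (0.0869 to 0.105). ACTA2-AS1 was called lower as well, from 40.1 to 96.5 CPM to 8.81 to 26.0 CPM, but it lies on the strand opposite ACTA2, and reads of the 2 may not be told apart. It did not pass without unstimulated replicate 1 or 2 or IL-17A replicate 3 (adjusted p of 0.0517 to 0.101). Markers of mature smooth muscle and pericytes summed to 371 to 1090 CPM without and 332 to 422 CPM with IL-17A, with 1 of 8 (DES) at 0 in all libraries and 0 of 4 tested members passing (edgeR, with 2 at an unadjusted p under 0.05 and 1 rise and 1 fall by DESeq2), and their part in the result was not tested. In bulk RNA, fewer cells of a type and less RNA per cell cannot be told apart. A CArG box, the motif of serum response factor, was found upstream of 3 of the 7 fallen contractile genes with a RefSeq promoter (MYLK, TPM4 and ACTN1) and of 1.66% of tested genes. The share among contractile genes that did not fall was not counted, so these values do not tie the motif to the fall. ACTG2, a smooth muscle gene that was not among the falls, also held it. For MYLK, the start that RefSeq lists in the table lies within the gene.

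Of 37 tested collagen and matrix genes 3 fell and 1 rose, with a median log2 fold change of -0.44. Over all genes tested 0.925% fell and 0.599% rose. At an unadjusted p under 0.05 (edgeR) there were 17 of the 37, beside 12.6% of all genes tested. FN1, encoding fibronectin, was at 1390, 1420, 972 and 1020 CPM without and at 674, 742, 724 and 605 CPM with IL-17A (-0.81 ± 0.20, adjusted p = 0.0247). COL6A3 fell from 378 to 496 CPM to 256 to 326 CPM (-0.59 ± 0.14, adjusted p = 0.0164), and CCN1, a matricellular protein, from 141 to 167 CPM to 70.2 to 118 CPM (-0.67 ± 0.16, adjusted p = 0.0172). COL8A1, a short-chain collagen, rose from 22.5 to 41.7 CPM to 59.3 to 90.7 CPM (1.16 ± 0.27, adjusted p = 0.0160). The fibrillar collagen gene COL1A1 was at 5400 to 13800 CPM without and 8330 to 10400 CPM with IL-17A (-0.12, adjusted p = 0.942), and the groups overlapped. COL7A1 was at 7.74 to 13.2 CPM and 7.80 to 13.6 CPM (0.23 ± 0.45, adjusted p = 0.908). COL5A1 was at 76.9, 33.5, 54.9 and 0.683 CPM without and at 0.464, 0.780, 0.801 and 0.574 CPM with IL-17A, so that unstimulated replicate 4 lay with the stimulated libraries, and it did not pass (adjusted p = 0.0891). The falls numbered 1 of 37 without unstimulated replicate 1 or 2 or IL-17A replicate 3, 0 without IL-17A replicate 2, and 5 by DESeq2. The rise of COL8A1 did not pass without unstimulated replicate 1 (adjusted p = 0.103) or IL-17A replicate 4 (0.0618). COL6A3 (0.0871) and CCN1 (0.111) did not pass when only the 2 groups were fitted.

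Among the 23 tested matrix proteases and inhibitors, ADAMTS5 rose and TIMP3 fell. ADAMTS5, an aggrecan-degrading protease, was at 167, 205, 270 and 297 CPM without and at 494, 563, 396 and 544 CPM with IL-17A (1.09 ± 0.22, adjusted p = 0.00367). TIMP3, a metalloproteinase inhibitor, was at 436, 271, 122 and 160 CPM without and at 112, 92.8, 115 and 56.3 CPM with IL-17A (-1.40 ± 0.33, adjusted p = 0.0148). The rise of ADAMTS5 was stable, and TIMP3 did not pass without unstimulated replicate 1 or 2 or IL-17A replicate 2 or 4 (adjusted p of 0.0560 to 0.183). The collagenase gene MMP1 (0.32 ± 0.25, adjusted p = 0.687) and the stromelysin gene MMP3 (0.81 ± 0.32, adjusted p = 0.234) did not pass, although the groups did not overlap for either.

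Of 22 tested genes of amino acid synthesis and endoplasmic reticulum stress 3 fell and none rose, with a median of -0.68, where 0.925% of all genes tested fell. At an unadjusted p under 0.05 (edgeR) there were 13 of the 22, in either direction, beside 12.6% of all genes tested. The list was not lowered as a whole: 16 members were below 0 and 6 above, up to 4.08. Its summed level was higher with IL-17A, at 8900 to 10700 CPM without and 11200 to 11700 CPM with it. PSAT1, an enzyme of serine synthesis, was at 206, 195, 86.5 and 113 CPM without and at 31.1, 57.7, 52.1 and 55.7 CPM with IL-17A (-1.62 ± 0.31, adjusted p = 0.00198). ASNS, asparagine synthetase, was at 126, 154, 102 and 122 CPM without and at 59.4, 42.1, 51.3 and 36.2 CPM with IL-17A (-1.41 ± 0.29, adjusted p = 0.00395). DDIT3, encoding the stress factor CHOP, was at 122, 132, 122 and 107 CPM without and at 62.1, 57.7, 49.7 and 58.6 CPM with IL-17A (-1.08 ± 0.20, adjusted p = 0.00168). All 3 falls were stable. ATF4, the transcription factor of this response, was at 43.7 to 60.5 CPM and 39.0 to 57.0 CPM (-0.11, adjusted p = 0.906).

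**Figure D3:**
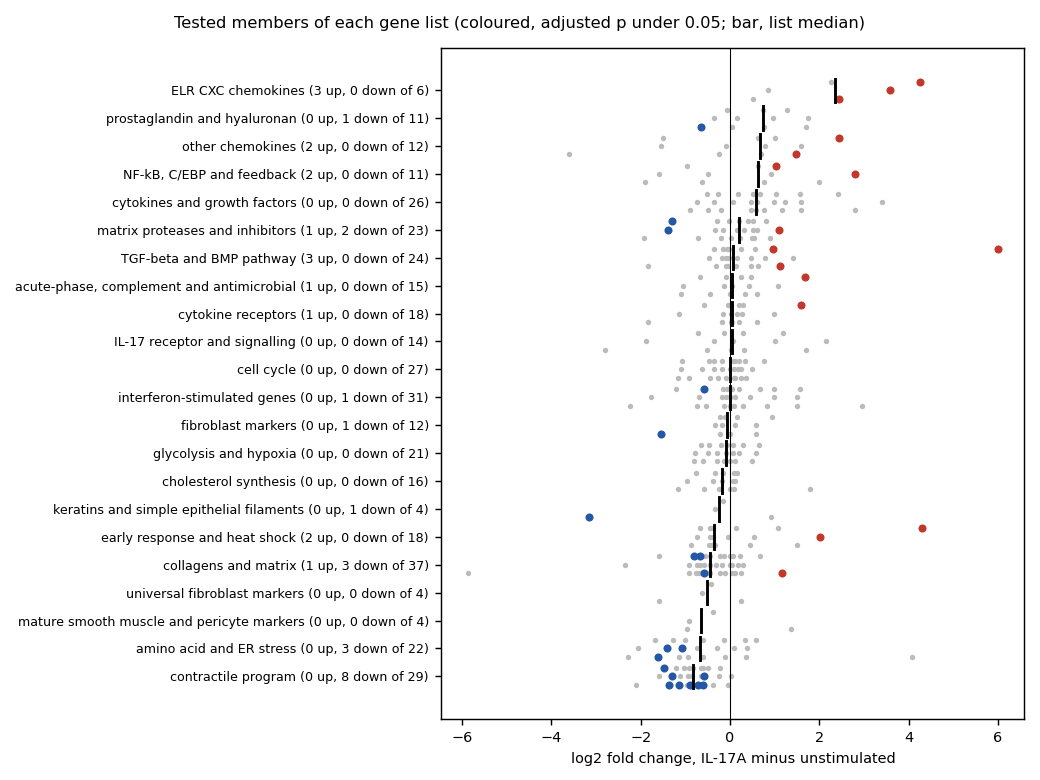
Log2 fold change (IL-17A minus unstimulated, horizontal axis) of each tested member of the 22 gene lists with at least 4 tested members, ordered by the list median (black bar), with genes at an adjusted p under 0.05 in red (higher) or blue (lower). The ELR CXC chemokines have the highest median (2.35) and the contractile program the lowest (-0.82), and most members are grey in all lists but the ELR CXC chemokines, where 3 of 6 are. The median over all genes tested was -0.02.

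Further falls were chosen by size. KRT18, a keratin of simple epithelia that was also expressed at a low level here, was at 10.8, 8.75, 6.33 and 15.0 CPM without and at 1.39, 1.56, 0 and 1.15 CPM with IL-17A (-3.16 ± 0.63, adjusted p = 0.00346). Every IL-17A library was at or below 3 counts for KRT18, so the size of its fall is uncertain. NRXN3, a neurexin, was at 25.0, 54.7, 35.2 and 36.9 CPM without and at 3.71, 3.12, 8.01 and 4.02 CPM with IL-17A (-3.01 ± 0.59, adjusted p = 0.00257). FGL2, a fibrinogen-like protein with immunosuppressive activity in its secreted form, was at 114, 142, 85.1 and 87.4 CPM without and at 22.3, 14.0, 27.2 and 34.5 CPM with IL-17A (-2.12 ± 0.29, adjusted p = 1.16e-05). The falls of KRT18, NRXN3 and FGL2 were stable.

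THY1, encoding the fibroblast surface protein CD90, was at 181, 82.4, 64.7 and 63.5 CPM without and at 27.4, 35.1, 47.3 and 26.4 CPM with IL-17A (-1.55 ± 0.34, adjusted p = 0.00877). It did not pass without unstimulated replicate 1 (-1.06, adjusted p = 0.156) or IL-17A replicate 4 (adjusted p = 0.0506). PDPN, encoding podoplanin, was at 223 to 253 CPM without and 120 to 339 CPM with IL-17A (0.16 ± 0.30, adjusted p = 0.908). Other genes called lower were MET, the receptor of hepatocyte growth factor (-2.02 ± 0.54), ALDH1A1, a retinaldehyde dehydrogenase (-1.64 ± 0.43), MGP, an inhibitor of calcification (-1.65 ± 0.41), FGD4, an activator of CDC42 (-2.16 ± 0.44), and PARP9 (-1.84 ± 0.40). FGD4 and PARP9 lost their call with the IL-6 reference (adjusted p of 0.287 and 0.295), and PARP9 and MGP with the 2 groups alone (0.0873 and 0.125). PARP9 also lost it without IL-17A replicate 2 (0.0517). ALDH1A1 lost it without unstimulated replicate 1 or 2 or any IL-17A library (0.0602 to 0.328), and MGP without unstimulated replicate 3 or 4 or IL-17A replicate 1, 2 or 4 (0.0531 to 0.0990).

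RPRD1B (-2.58 ± 0.64), PSTPIP2 (-2.48 ± 0.66), EVA1A (-1.73 ± 0.41) and CMTR2 (-1.64 ± 0.44) fell from levels of 2.81 to 36.9 CPM. TENT5C had 60 counts over the unstimulated and 2 over the IL-17A libraries, a ratio of 0.0327 with a 95% counting interval of 0.00387 to 0.123. HSPB7, a small heat shock protein gene, had 28 counts without and 0 with IL-17A, at least 2.12-fold lower against a floor of 3 counts per library. MET, CMTR2 and PSTPIP2 did not pass without unstimulated replicate 2 or 4 or IL-17A replicate 2, 3 or 4, MET and PSTPIP2 also not without unstimulated replicate 1, and MET and CMTR2 not without IL-17A replicate 1 (adjusted p of 0.0512 to 0.244). RPRD1B did not without unstimulated replicate 2 or IL-17A replicate 1, 2 or 3, EVA1A without IL-17A replicate 1 or 3, nor HSPB7 without unstimulated replicate 1 or 2 or any IL-17A library (0.0630 to 0.180), while TENT5C was stable, both of its IL-17A counts being in replicate 4. PSTPIP2 was at -3.31 without IL-17A replicate 1. Of the remaining lists, interferon-stimulated genes had 1 fall in 31 (GBP1, -0.59 ± 0.16, adjusted p = 0.0453), prostaglandin and hyaluronan genes 1 fall in 11 (CD44, -0.64 ± 0.18, adjusted p = 0.0479), both of them lost without most single libraries. Of the 27 cell cycle, 21 glycolysis and hypoxia and 16 cholesterol synthesis genes tested 0 passed by edgeR or DESeq2, with 3, 1 and 2 at an unadjusted p under 0.05, shares no higher than the 12.6% of all genes tested.

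IL-17A was then set directly against IL-1β and TNF, the other cytokines of the series known to act through NF-κB, in the same fit. By the labels and the methods the dose of IL-1β was 0.1 ng/ml and that of IL-17A and TNF 10 ng/ml, while another passage of the study gives a lower dose of IL-1β, so that the contrast with IL-1β also compares doses. Against IL-1β, 121 genes (1.27%) were called, 41 higher and 80 lower with IL-17A. Against TNF, 318 genes (3.34%) were called, 152 higher and 166 lower with IL-17A. The 3 groups share no library, and the contrasts share the 4 IL-17A libraries.

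For the ELR CXC chemokines, IL-1β gave higher levels than IL-17A in all 6 genes. CXCL1 was at 1280 ± 87.5 CPM (mean ± SD, n = 4) with IL-17A, 6850 ± 376 with IL-1β and 509 ± 49.5 with TNF, so that IL-17A was 2.42 ± 0.35 log2 units below IL-1β (adjusted p = 5.34e-06) and 1.33 ± 0.34 above TNF (adjusted p = 0.00891). CXCL6 was at 1860 ± 146, 7220 ± 1570 and 1220 ± 149 CPM in the same order, and its difference from TNF did not pass (0.61 ± 0.25, adjusted p = 0.121). The remaining 4 were lower with IL-17A than with either cytokine. CXCL8 was at 306 ± 94.9 CPM with IL-17A against 19400 ± 3450 with IL-1β (difference -5.98 ± 0.90, adjusted p = 9.80e-06) and 16700 ± 4580 with TNF (-5.77 ± 0.89, adjusted p = 1.02e-05). CXCL5 was at 20.7 ± 6.51 CPM against 1360 ± 190 with IL-1β and 479 ± 166 with TNF.

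NFKBIZ stood at 71.2 ± 16.8 CPM with IL-17A and 88.7 ± 12.6 CPM with IL-1β, a difference of -0.31 ± 0.32 (adjusted p = 0.777), and at 22.7 ± 6.76 CPM with TNF, 1.64 ± 0.34 log2 units below IL-17A (adjusted p = 9.31e-04). CCL2 went the other way, at 849 ± 21.4 CPM with IL-17A, 5870 ± 204 with IL-1β and 7400 ± 1550 with TNF (differences of -2.79 and -3.12, adjusted p = 2.90e-10 and 5.54e-12). IL6 was at 28.0 ± 9.92, 621 ± 167 and 185 ± 20.2 CPM, SOD2 at 850 ± 125, 3260 ± 514 and 2820 ± 467 CPM, and MMP3 at 1120 ± 159, 12000 ± 1620 and 12900 ± 3860 CPM in the same order. For these 3 genes both differences passed, with adjusted p of at most 5.13e-05. CEBPD, at 15.0 CPM with IL-17A, 8.75 with IL-1β and 4.62 with TNF on average, was higher than with TNF as well (1.69, adjusted p = 0.0241).

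**Figure D4:**
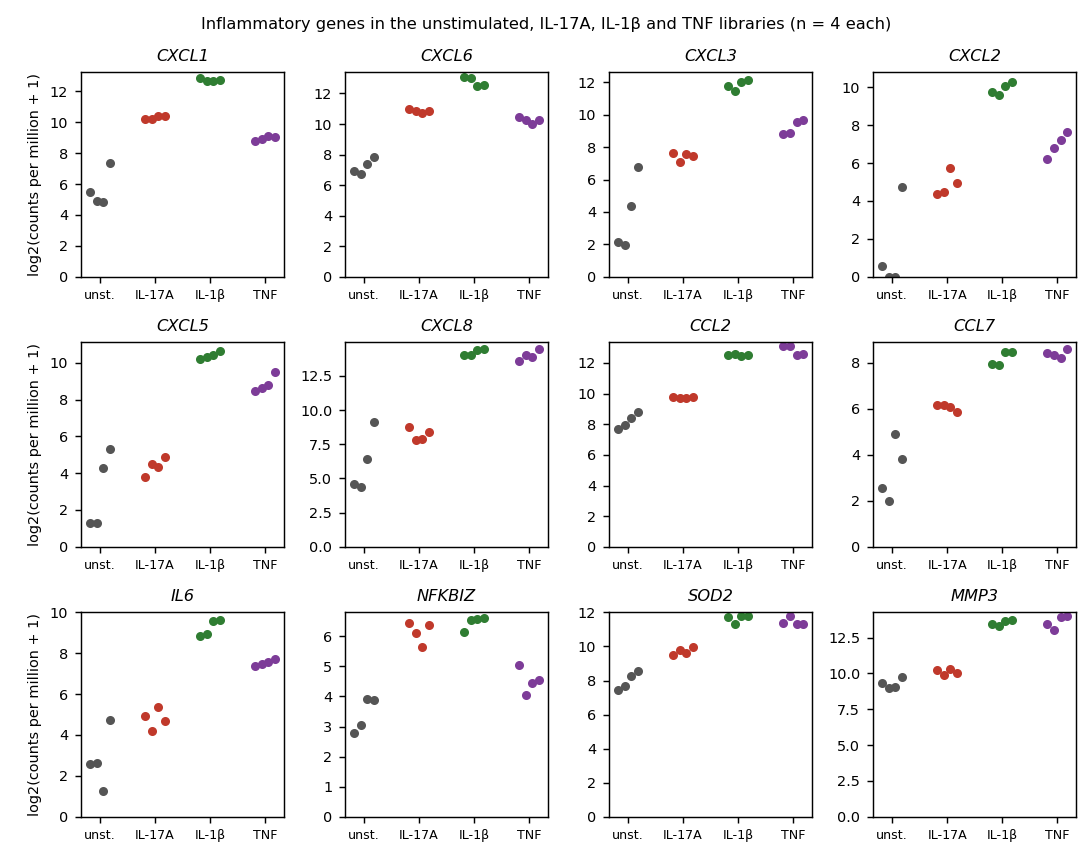
Log2(CPM + 1) of 12 inflammatory genes in the unstimulated (grey), IL-17A (red), IL-1β (green) and TNF (purple) libraries, 4 of each, with every axis starting at 0. IL-17A libraries lie above all TNF libraries for CXCL1, CXCL6 and NFKBIZ, and below both IL-1β and TNF for CXCL3, CXCL2, CXCL5, CXCL8, CCL2, CCL7, IL6, SOD2 and MMP3.

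The 23 genes called higher with IL-17A were chosen on the IL-17A libraries, which tends to raise their level there. Of these 23, 7 were lower and 2 higher with IL-17A than with IL-1β at an adjusted p under 0.05, and 14 did not pass. Those higher were RGCC (28.0 ± 13.1 against 6.20 ± 1.70 CPM) and RIPOR3-AS1 (21.2 ± 8.66 against 4.01 ± 1.25 CPM). Against TNF 5 were lower and 3 higher. Of the 20 genes called lower with IL-17A, 4 were lower still with IL-1β and 4 were higher with it.

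The 4 that IL-1β left at a lower level than IL-17A were also left lower by TNF. PSAT1 was at 49.1 ± 12.3 CPM with IL-17A, 13.5 ± 1.88 with IL-1β and 10.1 ± 4.18 with TNF, and ALDH1A1 at 28.8 ± 4.49, 5.04 ± 1.45 and 4.72 ± 4.85 CPM. FGL2 (24.5 ± 8.58, 6.14 ± 2.67 and 9.23 ± 4.88 CPM) and MGP (8.24 ± 3.83, 1.98 ± 1.68 and 2.50 ± 2.24 CPM) followed the same order, with MGP near the floor under IL-1β and TNF. The reverse was seen for FGD4, at 5.46 ± 1.95 CPM with IL-17A, 34.0 ± 11.9 with IL-1β (difference -2.59, adjusted p = 6.88e-05) and 26.5 ± 6.52 with TNF (-2.23, adjusted p = 4.08e-04). NRXN3 was at 4.72 ± 2.23 CPM with IL-17A against 22.8 ± 9.35 with IL-1β (-2.29, adjusted p = 0.0150), and its difference from TNF did not pass (-1.05, adjusted p = 0.326). Of the 8 contractile genes that fell, none differed from IL-1β at an adjusted p under 0.05 (ACTA2, TAGLN, MYLK, CSRP1, ACTN1, TPM1, TPM4 and CALD1, adjusted p of 0.0665 to 0.908). CSRP1 (-1.23 ± 0.28, adjusted p = 0.00293) and TPM4 (-0.48 ± 0.13, adjusted p = 0.0153) were lower with IL-17A than with TNF, and the other 6 did not differ from TNF at that threshold (0.142 to 0.887).

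The genes with the largest direct differences were mostly those that IL-17A left near 0. Below IL-1β these were SERPINB7 (0 counts with IL-17A, at least 42.9-fold lower), C15orf48 (a ratio of 0.00538, 95% counting interval 0.00111 to 0.0158), CSF2, encoding GM-CSF (0.00557, 0.000672 to 0.0203), CCL20 (-6.91 ± 0.94, adjusted p = 4.06e-06), NBPF19 (at least 4.96-fold) and CYB561 (at least 3.03-fold). Below TNF they were CXCL11, an interferon-inducible chemokine (at least 13.4-fold), CD83 (at least 8.48-fold), BIRC3, an inhibitor of apoptosis (-7.41 ± 0.63, adjusted p = 6.12e-12), IDO1, a tryptophan-degrading enzyme (at least 5.31-fold), IL32 (-7.04 ± 0.60, adjusted p = 6.39e-12) and NBPF19 (at least 4.35-fold). IDO1 was at 0, 6.89, 0 and 34.8 CPM in the TNF libraries, so its difference rests mainly on TNF replicate 4. CYB561 was also called lower against unstimulated cells (adjusted p = 0.0189 by edgeR), at 0 to 6.83 CPM without and 0 with IL-17A. NBPF19, at 0 to 10.2 CPM without and 0 with IL-17A, did not pass there (adjusted p = 0.162).

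Genes higher with IL-17A were mostly ones with 0 counts in the other group. Above IL-1β these were CABCOCO1 (at least 4.00-fold), BMP5 (at least 2.95-fold), COL11A1 (at least 2.36-fold), VEGFD (a ratio of 41.6, 95% counting interval 11.2 to 350), DDAH1 (3.86 ± 0.77, adjusted p = 8.96e-04) and SOBP (20.6, 3.29 to 852). For COL11A1, 27 of the 33 counts with IL-17A were in replicate 1, and replicates 2 and 4 had 0. DDAH1 was uneven with IL-1β, at 0, 45.1, 0 and 0 CPM, against 240, 159, 136 and 94.2 CPM with IL-17A. Above TNF they were PDE1A (at least 4.86-fold), TMEM100 (at least 3.08-fold), BMP5 (at least 2.53-fold), PTGIS, prostacyclin synthase (at least 1.94-fold), ADH1B, an alcohol dehydrogenase (a ratio of 64.7, 17.6 to 540) and LINC01133 (at least 1.42-fold, with 14 of its 20 counts in IL-17A replicate 4). BMP5 had 0 counts in IL-17A replicate 3. Of these 12 entries none passed in IL-17A against unstimulated cells. VEGFD, a lymphatic growth factor, was the closest, at 0 to 2.81 CPM without and 10.7 to 14.4 CPM with IL-17A (log2 fold change 2.96 ± 1.19, adjusted p = 0.255).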

How the data were processed

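The authors checked reads with FastQC (0.11.9) and MultiQC (1.14), quantified them with kallisto (0.48.0) and deposited estimated counts per gene symbol, with no scaling for depth. The processing notes name hg38, while the use of strand, the transcriptome release and how transcripts were summed to genes are not given in the sources used here. The deposited estimated counts (5.77% not whole) were rounded. In R (4.3.3), edgeR (4.0.16) kept 9513 of 40663 symbols (filterByExpr over 11 groups), applied TMM scaling and fitted all 44 libraries in 1 quasi-likelihood model (common biological coefficient of variation 0.331), with Benjamini-Hochberg adjustment within each contrast. Standard errors are the log2 fold change divided by the square root of its F statistic and are approximate. Genes were named as the 16 largest rises and 16 largest falls among called genes with no overlap between groups and a mean log2 CPM of at least 1, list members at an adjusted p under 0.05, 27 genes of the IL-17A response, and the 6 largest differences per direction in direct contrasts. One named gene is not reported here. Other genes printed are list members below the threshold, given as values. Members and lists were chosen with earlier results of these data known. Alternatives were DESeq2 (1.42.0), its size factors, other filters, a log2 threshold of 1, the 2 groups alone, a replicate block, each library left out, and, added after seeing the data, IL-6 libraries as the reference. Gene coordinates are from GENCODE release 44 (GRCh38), matched by symbol. Promoters are from RefSeq (GRCh38.p14). Code was tested on simulated counts. In all 12 replicate pairs, counts varied beyond sampling noise (smallest chi-square / df of 4.86), and none was identical. Floors and intervals cover counting error only.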

Additional observations from a re-analysis of the deposited data

Results flagged for a closer look

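In 13 of 110 groups of 4 libraries that were checked (library totals, the genes named for the size of their change and those of the IL-17A response), 1 library lay far from the other 3 by Dixon's criterion. Chance alone would meet it in about 1 of 20 groups if values were normally distributed. Where the other 3 are all at 0, as for CCL20, CSF3, IL17RC and TENT5C, any value above 0 meets it, so that rate is no measure for these 13 groups. Of these, 7 concerned unstimulated replicate 4, each time as the highest library: CXCL1 at 166 CPM (the others 28.1 to 44.1), CXCL3 at 107 (2.92 to 19.7), CXCL2 at 25.3 (0 to 0.49), CXCL8 at 554 (19.7 to 85.1), IL6 at 26.0 (1.41 to 5.10), CCL20 at 2.73 (0 in all) and CSF3 at 1.37 (0 in all). In this library chemokine and cytokine transcripts were high together, so the 7 are not independent, and CCL20 and CSF3 were at or near the level of 3 counts. The cause was not tested.

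For unstimulated replicate 1, THY1 was at 181 CPM (the others 63.5 to 82.4), COL7A1 at 13.2 (7.74 to 8.20) and IL17RC at 1.47 (0 in all). PSTPIP2 was at 29.2 CPM in unstimulated replicate 2 (13.0 to 13.4). Among the IL-17A libraries, TENT5C was at 1.15 CPM in replicate 4 (0 in the others) and ZC3H12A at 5.61 CPM in replicate 3 (0.78 to 1.39). No library total was marked in this way.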

How the results depend on the processing

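All 58 named genes that passed kept their direction in every alternative that gave a value, and 19 also passed in each. Among the 19 were ADAMTS5, AKR1C1, ASNS, CCL2, CCL7, CXCL1, CXCL6, DDIT3, FGL2, KRT18, MYLK, NAMPT, NFKBIZ, NRXN3, PSAT1, SOD2, TENT5C and TPM4. The other 39 did not pass in at least 1, and 4 that had not passed did so in at least 1. Leaving out 1 library gave 23 to 60 called genes for IL-17A against unstimulated (43 in the comparison as reported), with 26 without unstimulated replicate 1, 23 without replicate 2 and 28 without IL-17A replicate 2, and 62 to 225 genes at an adjusted p under 0.05 (145), with 77, 62 and 225 without unstimulated replicates 1, 2 and 3 and 73, 77 and 91 without IL-17A replicates 2, 3 and 4. Against IL-1β the range was 101 to 121 and against TNF 250 to 332. With an absolute log2 fold change above 1, 80, 207 and 538 genes were called against unstimulated, IL-1β and TNF. With no filter on low counts, 86 genes were called against unstimulated and 220 were at an adjusted p under 0.05. DESeq2 called 37 genes, of which 29 were shared with the 43, and put 239 at an adjusted p under 0.05, of which 130 were shared with the 145. The 2 groups alone gave 31 called genes (25 shared) and 99 at an adjusted p under 0.05 (80 shared). Named genes that passed in the main fit but not with the 2 groups alone, among those tested there, were CXCL3, RIPOR3-AS1, RGCC, TMOD1, PSTPIP2, PARP9, EVA1A, MGP, CMTR2, NFKBIA, COL6A3, CCN1, TPM1, CALD1, CSRP1, GBP1 and CD44 (edgeR, adjusted p of 0.0626 to 0.147). With IL-6 libraries as the reference the counts were 36 and 141, of which 23 and 100 were shared. Named genes that passed against unstimulated but not against IL-6 were TGFB3, SST, FAM110B, RIPOR3-AS1, NLRC5, RGCC, TMOD1, IL13RA2, HSPB7, PSTPIP2, FGD4, MET, PARP9, CMTR2 and CD44 (edgeR, adjusted p of 0.0724 to 0.624). Over all genes tested, same-numbered IL-17A and unstimulated libraries did not deviate together (correlations of -0.086, 0.002, -0.064 and 0.034). Nor did IL-17A and IL-1β (-0.019 to 0.033) or TNF libraries (-0.001 to 0.097). The main fit therefore used no pairing by number. Correlations over all genes, many of them at low counts, cannot exclude that the numbers share an effect on some genes. Unstimulated and IL-6 libraries gave 0.036 to 0.281, so the IL-6 reference is not free of the unevenness in the unstimulated group. The replicate block gave 56 called genes and 223 at an adjusted p under 0.05, and CXCL2 then passed (adjusted p = 0.0151). Reversed directions concerned genes that never passed: C3 without IL-17A replicate 2 (-0.82, in a range of -0.82 to 0.82 over single libraries left out), CCL20 without IL-17A replicate 4 (-0.54, range -0.54 to 4.09), and TRAF3IP2 (-0.11) and COL7A1 (-0.11) against IL-6. The causes were not tested. A median of 34 counts per tested gene in unstimulated libraries limits what can be said of receptors and transcription factors.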

Other observations

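The genes below lie outside the lists and were chosen after their values were seen. DIO2, which activates thyroid hormone, rose from 552 to 1506 CPM on average (log2 fold change 1.45, adjusted p = 0.00120), MT2A, a metallothionein, from 238 to 435 CPM (0.87, adjusted p = 0.0117), SAT1, which breaks down polyamines, from 632 to 1266 CPM (1.00, adjusted p = 0.00675), and the bradykinin receptor gene BDKRB2 from 129 to 223 CPM (0.79, adjusted p = 0.00658). MTHFD2, a mitochondrial folate enzyme, fell from 170 to 71.7 CPM (-1.25, adjusted p = 5.41e-04) and SLC38A1, a glutamine transporter, from 182 to 86.3 CPM (-1.06, adjusted p = 0.00745). The tRNA synthetase genes GARS1 (-0.82, adjusted p = 0.0462) and EPRS1 (-0.63, adjusted p = 0.0426) fell by less. The caveolin genes CAV1 (-0.75, adjusted p = 0.0119) and CAV2 (-0.91, adjusted p = 0.00495) both fell, as did the cytoskeletal gene SEPTIN11, from 479 to 221 CPM (-1.12, adjusted p = 1.16e-05), the laminin gene LAMA4 (-1.13, adjusted p = 0.00367) and the transcription factor gene ZEB1 (-0.84, adjusted p = 0.00420).

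A CArG box was found within 250 bases upstream of 8 of the 76 fallen genes with a RefSeq promoter (10.5%), of 0 of the 50 that rose and of 1.66% of tested genes. The 8 were ACTN1, FILIP1L, GARS1, GBP1, MYLK, NAV2, TES and TPM4. Another motif, TGATGNAA, was found for 7 of the 76 fallen genes (9.21%), 0 of the 50 that rose and 2.48% of tested genes. ACTN1, GARS1, GBP1 and MYLK held both motifs. These are descriptions with no test.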
